A study of Mus musculus with 6 samples.

Results

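Naive state factors are transcription factors that hold mouse embryonic stem cells in the ground state of pluripotency. Of 9 genes in the set, 8 of the 12331 gene rows were measured: Klf2, Klf4, Klf5, Esrrb, Tbx3, Tcfcp2l1 (current symbol Tfcp2l1), Nr0b1 and Nr5a2. They were taken by name, and Prdm14, the ninth, was not analysed here. Expression was measured by RNA-seq in 6 libraries from mouse embryonic stem cells of the established line E14tg2a, grown in serum medium with the cytokine LIF. In 3 libraries the cDNA was cut and tagged in 1 step by hyperactive Tn5 transposase (tagmentation), and in the other 3 it was sheared by sonication before adaptors were ligated. All libraries shared the line, the medium and the start from 10 pg of total RNA, the amount of about 1 cell, primed with oligo(dT) and amplified by 20 PCR cycles. The replicates are labelled technical, with the numbers 1 to 3 in both methods. The RNA came from a preparation of many cells and was not that of separate cells, so p-values say nothing of separate cultures. Those between replicate numbers rest on the gap between methods within a number. If libraries of 1 number share a cDNA, which the labels do not state, they do not measure the spread between cDNA preparations.

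LIF acts through its receptor and the transcription factor Stat3, which turns on Klf4 and Tfcp2l1 in mouse embryonic stem cells. Inhibition of GSK3 relieves the repressor Tcf7l1 from Esrrb, an orphan nuclear receptor that can stand in for Nanog, and Tbx3 has been placed downstream of PI3K signalling. Klf2, Klf4 and Klf5 are zinc finger proteins that bind GC-rich and CACCC elements and overlap in function. Nr5a2 is a nuclear receptor that binds elements in front of Pou5f1, while Nr0b1 (Dax1) is a nuclear receptor without the usual DNA-binding domain and acts mainly as a repressor.

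Promoter sequence from RefSeq (build GRCm38.p6) was matched for 6 of the 8 genes. The 120 bases before the start site are shown for Klf2, the steadiest factor between libraries, and for the pairs Klf4 with Nr0b1 and Esrrb with Tcfcp2l1, whose levels moved most alike among the variable and the steadier factors. Capitals mark GC boxes, spelled GGGCGG, and CACCC boxes, searched as CCACCC. Nuclear receptor half-sites were searched as AAGGTCA, and binding sites of STAT proteins as TTCNNNGAA. Each was searched on both strands.
Klf2, chr8:72318942-72319061, plus strand: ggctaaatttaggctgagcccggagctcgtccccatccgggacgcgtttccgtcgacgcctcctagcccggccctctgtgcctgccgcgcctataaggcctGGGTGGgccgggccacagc
Klf4, chr4:55532476-55532595, minus strand: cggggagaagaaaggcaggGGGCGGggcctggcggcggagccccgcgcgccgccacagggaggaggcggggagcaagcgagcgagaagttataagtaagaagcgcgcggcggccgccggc
Nr0b1, chrX:86191655-86191774, plus strand: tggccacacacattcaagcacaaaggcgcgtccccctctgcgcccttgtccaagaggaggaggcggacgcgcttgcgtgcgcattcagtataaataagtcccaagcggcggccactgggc
Esrrb, 1 of 2 windows, chr12:86360997-86361116, plus strand: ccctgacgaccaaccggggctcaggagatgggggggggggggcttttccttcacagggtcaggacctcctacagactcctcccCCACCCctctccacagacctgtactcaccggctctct
Tcfcp2l1, chr1:118627825-118627944, plus strand: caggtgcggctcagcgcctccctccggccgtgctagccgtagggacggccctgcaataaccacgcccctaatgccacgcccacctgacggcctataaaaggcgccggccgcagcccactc
Over the full 250 bases, GC boxes were found 4 times in Klf4, with 1 overlapping pair, and 2 times in Klf2. At least 1 GC box stood in 32.7% of 32851 promoter windows of that length. A CACCC box stood once each in the windows of Klf2, Nr0b1 and the Esrrb window shown, against 28.1% of all windows with at least 1. The Esrrb window also held 1 STAT site, found in 7.02% of all windows, and none of the 8 windows of the 6 genes held a half-site, found in 4.08%. The windows of Klf4 and Klf2 were 74.0% and 71.2% G or C, against a median of 52.4% over all windows. The data hold no measure of binding or methylation at these windows.

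The libraries held 18852822 to 34681566 alignments, and values were RPKM (reads corrected for gene length and for the library's number of alignments). At least 1 RPKM was reached by 5426 to 6784 genes after tagmentation and by 6077 to 6807 after sonication. Pou5f1, the core pluripotency factor, had 111 to 260 RPKM after tagmentation and 91.5 to 251 RPKM after sonication, and Zfp42 (Rex1) had 206 to 444 RPKM and 164 to 258 RPKM. Sox2, Nanog and Gbx2, further pluripotency genes named after their values were seen, were lower. Sox2 had 3.79 to 61.6 RPKM after tagmentation and 9.33 to 30.7 RPKM after sonication. Nanog had at most 8.39 RPKM and was listed at 0 in number 3 after both methods. Gbx2 was below 1 RPKM in all 6 libraries. Col1a1, Col1a2 and Col3a1, collagens of fibroblast feeder cells, were below 1 RPKM in all 6 libraries. The other genes of the fibroblast list, which stem cells can express too, were present, with Vim at 117 to 187 RPKM, Fn1 at 40.4 to 104.5 RPKM, Acta2 at 41.3 to 78.0 RPKM, Tagln at 11.2 to 21.3 RPKM and Thy1 at up to 12.1 RPKM. The reads behind a value could be recovered for 4 of the 8 factors, those whose RPKM gave whole reads in every library at a gene length within 5% of an annotated transcript (tolerance 0.002 reads plus 1e-05 of the reads). No stretch of 36 bases of Klf2, Nr0b1 or Esrrb occurred in transcripts of another annotated gene. The other factors shared 1.05% to 1.88% of such stretches with other genes, Tbx3 among them with its antisense gene Tbx3os1. No pair of the 8 factors shared any.

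All 8 factors were measured above 0 in both libraries of at least 1 number, at widely different levels. On the RPKM scale, means over the 6 libraries ran from Nr0b1 with 114 ± 131 RPKM over Klf2 with 56.2 ± 8.61 RPKM and Esrrb with 53.1 ± 26.3 RPKM to Klf5 with 28.5 ± 28.1 RPKM (SD, n = 6). Below them stood Klf4 with 16.5 ± 16.4 RPKM, Tbx3 with 9.02 ± 10.4 RPKM, Tcfcp2l1 with 4.02 ± 1.71 RPKM and Nr5a2 with 0.509 ± 0.850 RPKM (SD, n = 6). The ranges of all neighbours in this order overlapped, except those of Tcfcp2l1 and Nr5a2. Of the 8 factors, 5 reached 1 RPKM in all 6 libraries, as did 57.6% of the genes tested, and 7 passed the filter for testing (1 RPKM or more in at least 3 libraries). Nr5a2 did not pass it. In RNA of many cells, fewer cells with a transcript and less of it per cell cannot be told apart behind a low level.

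**Figure D1:**
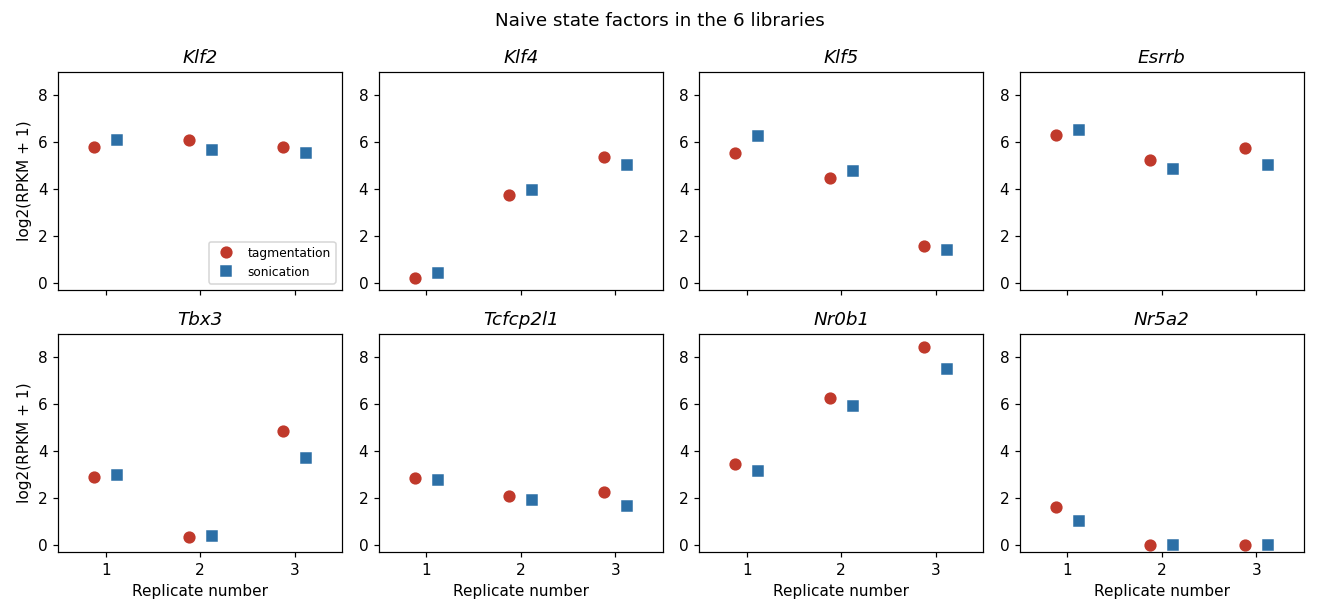
Level of each factor as log2(RPKM + 1) against replicate number, with circles for tagmentation and squares for sonication. Klf2 stayed between 45.4 and 66.6 RPKM, while Klf4, Klf5, Tbx3 and Nr0b1 moved between numbers by 3.93 to 4.90 on this scale. The widest gap between methods within a number was 1.15, for Tbx3 in number 3.

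Klf2, one of the zinc finger factors of the naive network, was the steadiest member. It had 54.9, 66.4 and 53.7 RPKM in tagmentation libraries 1 to 3, against 66.6, 50.4 and 45.4 RPKM in sonication libraries 1 to 3. The methods overlapped, and no number stood apart. These values rested on 2095, 4174 and 3384 reads after tagmentation and on 3665, 2015 and 1554 reads after sonication. Within each library Klf2 stood at the 89.5th to 91.9th percentile of all gene rows. Its number means, on the log2(RPKM + 1) scale used for all differences, spanned 0.29, a range larger than that of only 1.72% of the tested genes, and it was not called between numbers (limma's F test with the method as a term, Benjamini-Hochberg adjusted p 0.722).

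Klf4, a reprogramming factor and target of LIF and Stat3 signalling, was nearly missing from number 1. It had 0.141, 12.3 and 40.4 RPKM in tagmentation libraries 1 to 3, against 0.336, 14.3 and 31.6 RPKM in sonication libraries 1 to 3. Number 1 was the lowest and number 3 the highest after both methods, so that the methods overlapped. In number 1 the values rested on 9 reads after tagmentation (95% exact Clopper-Pearson interval 0.0644 to 0.267 RPKM) and on 31 reads after sonication (0.228 to 0.477 RPKM). In number 3 they rested on 4270 and 1812 reads. Such intervals cover counting error only, since several PCR reads can come from 1 molecule and no molecular identifiers were used. Klf4 was higher by 4.90 (SE 0.35) in number 3 than in number 1 and by 1.36 (SE 0.35) in number 3 than in number 2. Its limma adjusted p for these contrasts was 3.44e-30 and 3.35e-04.

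Klf5, a factor needed for self-renewal and in the early embryo for trophectoderm, ran the other way. It had 45.3, 21.1 and 1.94 RPKM in tagmentation libraries 1 to 3, against 75.2, 26.0 and 1.60 RPKM in sonication libraries 1 to 3. Number 3 was the lowest after both methods and number 1 the highest. The reads were 3280, 2524 and 232 after tagmentation and 7864, 1976 and 104 after sonication, at a length of 3450 bases. That length was chosen because it is near an annotated transcript. A length of 1725 also gave whole reads, and the reads would then be fewer in proportion to the length. Klf5 was lower in number 3 than in number 1 (log2 difference -4.43, SE 0.36) and than in number 2 (-3.15, SE 0.36). The limma adjusted p was 1.32e-25 for number 3 against number 1 and 4.93e-15 for number 3 against number 2. The libraries with the most Klf4 thus had little Klf5, and those with the most Klf5 had almost no Klf4.

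Esrrb, the orphan nuclear receptor, was well measured everywhere. It had 79.2, 36.7 and 52.3 RPKM in tagmentation libraries 1 to 3, against 90.9, 28.3 and 31.3 RPKM in sonication libraries 1 to 3. Number 1 was the highest after both methods, and numbers 2 and 3 overlapped. Relative to number 1, Esrrb was lower in number 2 (log2 difference -1.37, SE 0.36, limma adjusted p 4.19e-04) and in number 3 (-1.05, SE 0.36, limma adjusted p 0.00674). Its F test over the numbers (limma adjusted p 7.57e-04) was not passed without tagmentation replicate 2 (0.182), without sonication replicate 2 (0.203), or without both libraries of number 1 (0.167) or of number 2 (0.157).

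Tcfcp2l1, a CP2-family factor downstream of LIF and Stat3, was low but present in every library. It had 6.32, 3.20 and 3.78 RPKM in tagmentation libraries 1 to 3, against 5.89, 2.80 and 2.12 RPKM in sonication libraries 1 to 3. Number 1 was again the highest after both methods, as for Esrrb. Tcfcp2l1 had a range of 0.88 between numbers (limma's F test, adjusted p 0.0207), a call that was lost in 9 of 15 alternatives (adjusted p 0.0129 to 0.867 over all 15).

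Tbx3, a T-box factor of the naive state, was almost absent from number 2. It had 6.38, 0.264 and 28.2 RPKM in tagmentation libraries 1 to 3, against 6.85, 0.306 and 12.1 RPKM in sonication libraries 1 to 3. Number 2 was the lowest and number 3 the highest after both methods. Tbx3 was higher in number 3 than in number 2 by 3.93 (SE 0.35, limma adjusted p 7.43e-22) and lower in number 2 than in number 1 (log2 difference -2.57, SE 0.35, limma adjusted p 1.56e-11). Neither kit is stated to keep strand, so reads of Tbx3 and its antisense gene cannot be told apart.

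Nr0b1 reached the highest level of all 8 factors. It had 9.95, 76.6 and 347 RPKM in tagmentation libraries 1 to 3, against 7.93, 59.7 and 180.2 RPKM in sonication libraries 1 to 3. Number 1 was the lowest and number 3 the highest after both methods, in the same order as Klf4. The reads were 375, 4758 and 21602 after tagmentation and 431, 2358 and 6095 after sonication. By rank it was the 198th gene of tagmentation library 3 and the 291st of sonication library 3, but the 3998th and 4447th in number 1. The log2 difference was 4.67 (SE 0.36, limma adjusted p 6.74e-27) for number 3 against number 1.

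Nr5a2, which binds in front of Pou5f1, was measured above 0 in number 1 only. It had 2.03 RPKM in tagmentation library 1 and 1.02 RPKM in sonication library 1. In numbers 2 and 3 it was listed at 0 after both methods. There 3 reads would have given 0.0183 RPKM after tagmentation, and 0.0288 and 0.0336 RPKM in sonication libraries 2 and 3, for the longest annotated coding transcript of 4733 bases. For the shortest, of 679 bases, they would have given 0.127 to 0.234 RPKM. Pou5f1 was well expressed in all of these libraries, and a link between its level and that of Nr5a2 was not tested.

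Replicate number, then, separated most of the factors. In limma's F test 6 of the 7 tested factors were called between numbers, all but Klf2, against 88.1% of the 6327 genes tested, so the share of the factors was near that of all genes. In 4 of them, Klf4, Klf5, Tbx3 and Nr0b1, the numbers were also 4-fold or more apart, against 58.5% of all genes. Number 2 against number 1 gave 6 calls (71.1% of all genes called), 2 of them higher in number 2 (36.5% of all genes) and 4 lower. Number 3 against number 1 gave 6 calls (74.3% of all genes called), 3 of them higher in number 3 (31.2% of all genes) and 3 lower. Number 3 against number 2 gave 4 calls (63.2% of all genes called), 3 of them higher in number 3 (21.4% of all genes) and 1 lower. The test takes the difference between methods within a number as its error, and its spread came almost wholly from other genes of like level (212 degrees of freedom). If a number is 1 cDNA, its p-values do not measure the spread between cDNA preparations.

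**Figure D2:**
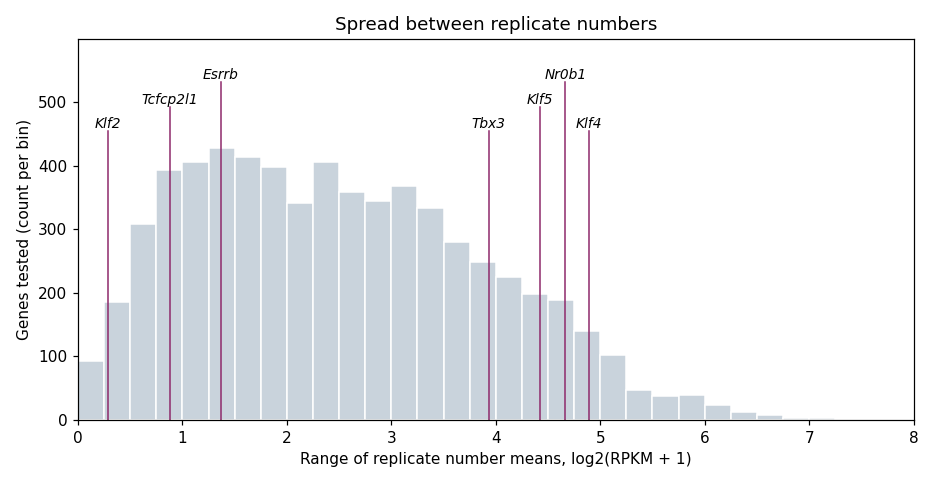
Histogram of the range between the 3 replicate number means of log2(RPKM + 1) over the 6327 tested genes, in bins of 0.25, with a vertical line for each tested factor. Klf2, Tcfcp2l1 and Esrrb lie below the median gene at 2.38, and Tbx3, Klf5, Nr0b1 and Klf4 lie from 3.93 to 4.90.

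The factors fell on both sides of the spread of all genes. The range between number means was larger than that of 82.7% of the tested genes for Tbx3, 89.4% for Klf5, 92.6% for Nr0b1 and 94.9% for Klf4. It was larger than that of 12.3% for Tcfcp2l1 and 25.1% for Esrrb. The replicate number took 39.1% of the sum of squares of Klf2, 82.8% of that of Tcfcp2l1 and 99.6% of that of Klf4, against a median of 94.0% over all tested genes. The method took at most 10.1% in the 7 factors, in Tcfcp2l1.

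Limma called 0 of the 7 tested factors between tagmentation and sonication, with 0 at an unadjusted p under 0.05, and the background was 0% of the 6327 genes called and 0.284% at an unadjusted p under 0.05. With the replicate number as a block, 3.29% of all genes (208) were called (1.58% higher after tagmentation and 1.71% lower) and still 0 of the 7 factors, with 0 at an unadjusted p under 0.05. In none of the 7 factors did the libraries of the methods stand apart without overlap, against 2.4% of all genes. The log2 difference, tagmentation minus sonication, was 0.53 (SE 1.32) for Nr0b1, 0.34 (SE 1.51) for Tbx3, 0.30 (SE 0.65) for Esrrb and 0.28 (SE 1.08) for Tcfcp2l1. It was 0.12 (SE 0.51) for Klf2, -0.029 (SE 1.69) for Klf4 and -0.28 (SE 1.45) for Klf5. The limma adjusted p was 1.00 for each of the 7. The blocked SE of these differences was 0.28 to 0.30, and the lowest blocked adjusted p was 0.367, for Nr0b1. Without both libraries of number 1, Nr0b1 was called with the block (0.65, limma adjusted p 0.0493) in a fit that called 1051 genes. With SEs of this size the lack of a call does not show equal levels. The median of the 7 was 0.28, with 5 above 0, beside 0.028 over all genes. The direction of 6 of the 7, all but Tcfcp2l1, turned in at least 1 alternative.

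**Figure D3:**
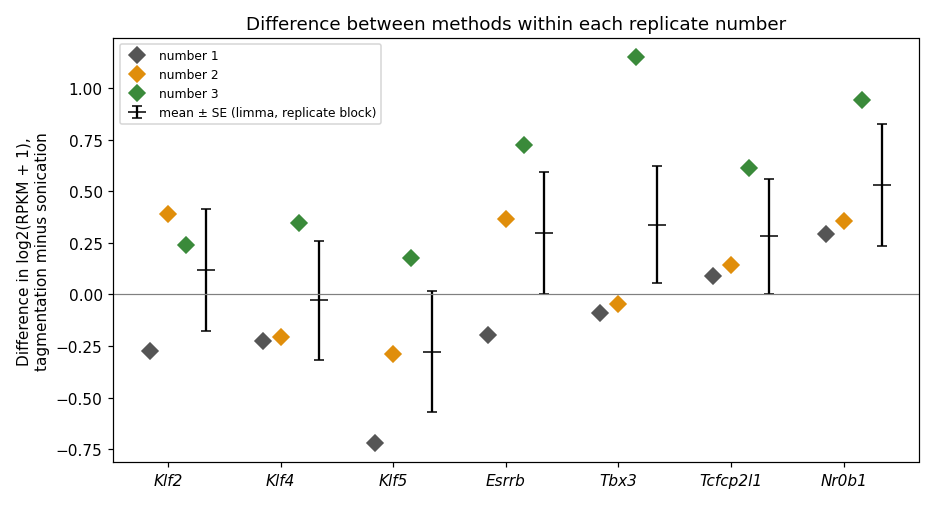
Difference in log2(RPKM + 1), tagmentation minus sonication, within each replicate number (diamonds) for the 7 tested factors, with the limma mean and its SE from the fit with the replicate block. In number 3 all 7 diamonds lie above 0, and in number 1 only those of Tcfcp2l1 and Nr0b1 do.

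The gap between methods within a number was widest in number 3. The median absolute log2 difference of the 7 tested factors was 0.23 in number 1, 0.29 in number 2 and 0.61 in number 3, beside 0.35, 0.27 and 0.44 over all genes. In number 1, 2 of the 7 tested factors were higher after tagmentation, against 38.6% of all genes, with a median difference of -0.20 beside -0.072. In number 2 it was 4 of 7 against 58.7%, with a median of 0.14 beside 0.079. In number 3 it was 7 of 7 against 65.4%, with a median of 0.61 beside 0.20. By log2 difference Tbx3 in number 3 was the widest at 1.15 (ratio 2.32 on the RPKM scale, tagmentation over sonication), followed by Nr0b1 in number 3 at 0.94 (ratio 1.93). On the RPKM scale Klf4 in number 1 was wider than both, with a ratio of 0.419 that rested on 9 reads after tagmentation and 31 after sonication. Each of these is a single pair of libraries and has no test of its own. Nr0b1 and Tcfcp2l1 were higher after tagmentation in 3 of 3 numbers, as were 19.6% of all genes tested, and no factor was lower in all 3, as were 14.2% of all genes. For 5 of the 7, the numbers stood in the same order after both methods, against 72.6% of all genes. Klf2 and Tcfcp2l1 were the exceptions.

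Among themselves the factors did not move as 1 block. Taken as the root mean square difference of centred log2(RPKM + 1) over the 6 libraries, the closest pair was Esrrb and Tcfcp2l1 at 0.25, followed by Klf2 and Tcfcp2l1 at 0.37 and by Klf4 and Nr0b1 at 0.42. The farthest pair was Klf4 and Klf5 at 3.81. Pearson's r over the 6 libraries was 0.98 for Klf4 with Nr0b1 and -0.87 for Klf4 with Klf5. These 6 points form 3 pairs that share a number, so the values are descriptions only.

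Genes outside the set had profiles at least as close. For Klf4 the nearest of 5898 other named genes were Iscu (0.049) and Laptm5 (0.095). Iscu had 0, 11.0 and 33.4 RPKM in tagmentation libraries 1 to 3, against 0.112, 12.6 and 28.0 RPKM in sonication libraries 1 to 3. For Nr0b1 they were Nsmce2 (0.16) and Rad50 (0.23), for Tbx3 Cdan1 (0.16) and Hddc2 (0.19), and for Klf5 Osbpl7 (0.15) and Otub1 (0.16). For Esrrb they were Nop56 (0.060) and Nip7 (0.072), for Tcfcp2l1 Jkamp (0.075) and Mrpl42 (0.084), and for Klf2 Mlec (0.081) and Nop10 (0.11). Within 0.5 of a factor lay 52 of these genes for Nr0b1, 54 for Klf4, 82 for Tbx3 and 102 for Klf5. There were 411 for Esrrb, 626 for Tcfcp2l1 and 855 for Klf2.

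**Figure D4:**
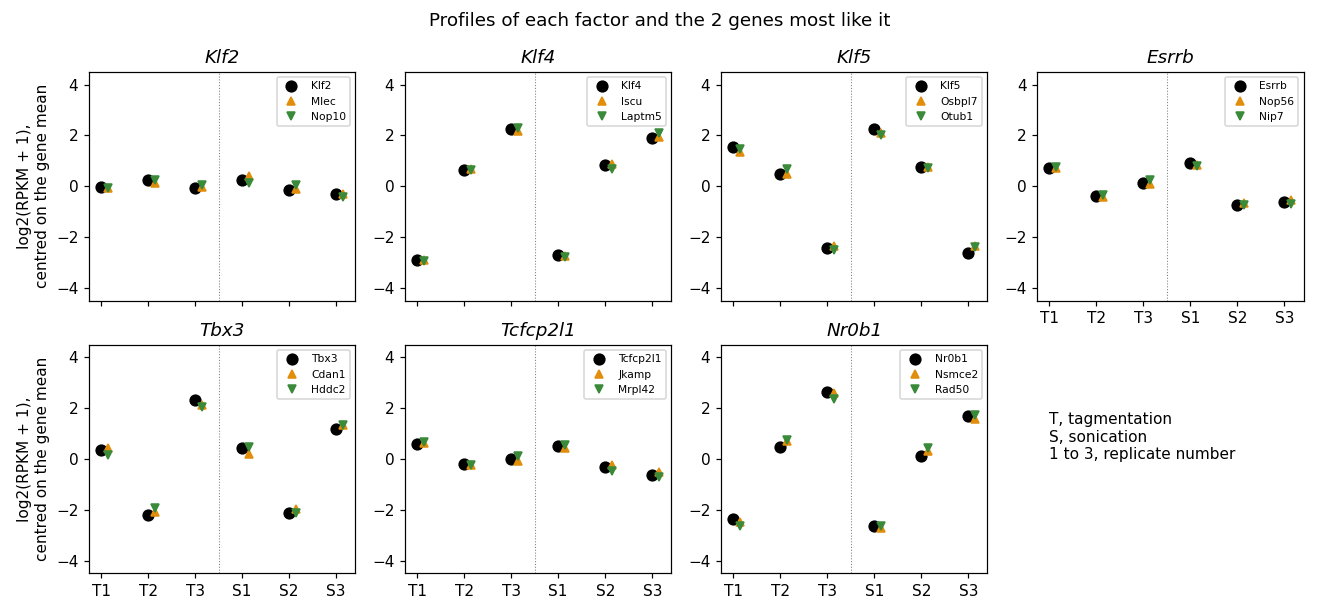
Centred log2(RPKM + 1) in the 6 libraries (T, tagmentation and S, sonication, with the replicate number) for each tested factor (black circles) and for the 2 named genes nearest to it (triangles). Klf4 and Nr0b1 are lowest in T1 and S1, Tbx3 in T2 and S2, and Klf5 in T3 and S3, with their nearest genes beside them.

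Of 14 tested genes of a list of the naive network with Pou5f1, Sox2, Nanog and Zfp42, 12 were called between numbers and 8 were 4-fold or more apart, shares near the 88.1% and 58.5% of all genes, and 0 differed between methods with or without the block. Their median method difference was 0.060, with 7 of 14 above 0, beside 0.028 over all genes. By level the list was led by Zfp42 and Pou5f1, followed by Tdh, the threonine dehydrogenase of mouse stem cells, and Mybl2, a cell cycle factor. Tdh had 130.3, 138 and 93.7 RPKM in tagmentation libraries 1 to 3, against 189, 129 and 69.8 RPKM in sonication libraries 1 to 3. Nanog, named after its values were seen, was listed at 0 after both methods in number 3, where Klf4, Tbx3 and Nr0b1 were highest.

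Of 13 tested genes upstream of the factors or opposing them, 11 were called between numbers, 7 of them 4-fold or more apart (88.1% and 58.5% of all genes), and 0 between methods with or without the block. Their median method difference was 0.19, with 8 of 13 above 0. Ctnnb1, beta-catenin, led them with 287, 234 and 144 RPKM in tagmentation libraries 1 to 3, against 221, 152 and 67.3 RPKM in sonication libraries 1 to 3. It was followed in level by Mbd3 of the NuRD complex, Dnmt3l and Tcf7l1. Tcf7l1, the repressor of Esrrb, had 25.1, 73.9 and 74.1 RPKM in tagmentation libraries 1 to 3, against 35.3, 109 and 157 RPKM in sonication libraries 1 to 3. It was lowest in number 1, where Esrrb was highest, but both genes were higher in number 3 than in number 2 after each method. Repression of Esrrb by Tcf7l1 was not tested. Stat3, named after its values were seen, had 3.03, 2.63 and 37.1 RPKM after tagmentation and 3.46, 2.35 and 24.2 RPKM after sonication. It was highest in number 3, as was Klf4, while Tcfcp2l1 was highest in number 1. Jak1, Jak2 and Socs3 of the same list were also highest in number 1 after both methods. Socs3 had 11.1 and 11.5 RPKM there after tagmentation and sonication, against 0.466 and 0.351 RPKM in number 3. Il6st of the same list went the other way and was listed at 0 in number 1 after both methods. It had 18.8 and 22.8 RPKM in tagmentation libraries 2 and 3, and 13.1 and 11.5 RPKM in sonication libraries 2 and 3. Whether the levels of these genes are linked was not tested.

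The 12 other listed members of the Klf family with a row were lower than Klf2 in all 6 libraries. Of 7 tested, all were called between numbers and 5 were 4-fold or more apart, where 88.1% and 58.5% of all genes were. Klf3 led with 7.45, 9.86 and 37.4 RPKM in tagmentation libraries 1 to 3, against 7.83, 8.52 and 29.3 RPKM in sonication libraries 1 to 3. Klf15 had 26.0, 0.302 and 0.729 RPKM after tagmentation and 29.0, 0.258 and 1.02 RPKM after sonication. Klf9 ranged from 2.82 to 12.4 RPKM over the 6 libraries. Klf6 was the single family member called for the method, only with the replicate block, where 3.29% of all genes were called. It was higher after tagmentation (1.07, SE 0.28, limma adjusted p 0.0139), as were 1.58% of all genes. It had 9.67, 1.43 and 12.1 RPKM after tagmentation, against 4.65, 0.517 and 3.23 RPKM after sonication, higher in 3 of 3 numbers. That call was made in 4 of 9 fits with the block (limma adjusted p 0.0116 to 0.999), and not without replicate 2 or replicate 3. Klf8, Klf12 and Klf14 were below 1 RPKM in all 6 libraries.

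Of 7 tested formative and primed epiblast genes, 6 were called between numbers (88.1% of all genes). Pou3f1 was higher after tagmentation with the block only (0.98, SE 0.29, limma adjusted p 0.0309), as were 1.58% of all genes. That call was made in 4 of 10 fits with the block and not without replicate 2 or replicate 3. The summed level of the 13 epiblast genes with a row was 179.8 to 343 RPKM after tagmentation and 162 to 212 RPKM after sonication. For the 8 mesoderm and primitive streak genes it was 17.0 to 149 RPKM and 14.1 to 136 RPKM, with Mixl1, Evx1 and Wnt3 below 1 RPKM throughout. Lefty1 was lower after tagmentation with the block only (-0.95, SE 0.30, limma adjusted p 0.0478), as were 1.71% of all genes. That call was made in 2 of 10 fits with the block and in none that left out a number. T (Brachyury), the defining streak gene and named after its values were seen, had 83.2 and 61.3 RPKM in tagmentation and sonication library 2, where Tbx3 was lowest. After tagmentation and sonication T had 12.6 and 7.08 RPKM in number 3, where Tbx3 was highest, but 0.209 and 0.145 RPKM in number 1. For the 7 endoderm genes the sums were 3.98 to 112 RPKM and 14.6 to 106 RPKM, with Pdgfra and Col4a2 below 1 RPKM in all libraries. In number 1, Sparc had 74.1 RPKM after tagmentation and 73.4 RPKM after sonication, Lamb1 had 26.9 and 25.6 RPKM, and Dab2 had 9.29 and 5.54 RPKM. Lama1 went the other way, listed at 0 in number 1 after both methods, with 10.3 and 9.56 RPKM in number 2. For the 7 trophoblast genes they were 289 to 425 RPKM and 348 to 458 RPKM, mostly from keratins, with Cdx2 and Krt7 below 1 RPKM in all. In number 1, Gata3 had 20.6 RPKM after each method and Ascl2 had 18.4 RPKM after tagmentation and 17.1 RPKM after sonication. Eomes and Krt18 of the same list were instead highest in number 2 after both methods. Eomes had 5.29 and 2.78 RPKM there after tagmentation and sonication, against 0.13 and 0.11 RPKM in number 1. The sums were 14.4 to 51.1 RPKM and 32.6 to 47.8 RPKM for 4 neuroectoderm genes, mostly from Tubb3, with Pax6 and Zfp521 below 1 RPKM. They were 303 to 326 RPKM and 238 to 335 RPKM for 8 fibroblast genes, and 19.4 to 125 RPKM and 10.5 to 93.6 RPKM for 6 germ cell genes. The germ cell sums came mostly from Dppa3, the only germ cell gene tested, which is also in the naive network list. Called between numbers were 5 of 5 tested mesoderm genes, 3 of 3 endoderm genes, 1 of 3 trophoblast genes, 2 of 2 neuroectoderm genes, 1 of 5 fibroblast genes and 1 of 1 germ cell gene, beside 88.1% of all genes. The part of these markers in the values of the naive state factors was not tested.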

How the data were processed

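RPKM values were made by the authors, per the file headers, which also give each library's alignments, and were deposited with 1 column per library. The submitters' processing notes name mm9, CASAVA 1.7.0 and Partek without roles. The aligner, the annotation and the handling of ambiguous reads are not stated in the sources used here. Values were tested as log2(RPKM + 1), which understates changes of low genes, for the 6327 genes that reached 1 RPKM in 3 or more libraries. limma 3.58.1 in R 4.3.3 (lmFit, eBayes with a trend, two-sided, Benjamini-Hochberg over all genes, threshold 0.05) compared the methods without a block, and the replicate numbers with the method as a term.

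Over the tested genes, deviations from the method means had correlations of 0.952, 0.969 and 0.934 in numbers 1 to 3, and of -0.175 or less across numbers. Centring on the method means itself pulls the latter below 0. Without centring, libraries of the 2 methods correlated by 0.958 to 0.977 within a number and by 0.482 to 0.705 across numbers. On these grounds numbers were treated as pairs in the fits with the block and in the comparison of numbers, although the labels do not state a shared cDNA. The main comparison of the methods left this pairing out. Libraries of 1 method correlated by 0.453 to 0.723, so none repeated another. Factors and lists were chosen with earlier results of these data known. Besides the 8 factors, the rule named the 2 nearest profiles of each and, per list, up to 4 genes by mean level and any called for the method. Lists of other cell types are given by summed levels, with single genes named after their values were seen, and lists were matched by the symbols in the file. Sequences came from RefSeq GRCm38.p6 and GENCODE M21, with no coordinates of the files' build used.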

Additional observations from a re-analysis of the deposited data

How the results depend on the processing

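The call of no factor between methods held in 21 of 22 alternatives. The exception was the replicate block without replicate 1, with 1 factor called (Nr0b1, 0.65, adjusted p 0.0493). Over all genes the count was 0 in each alternative without the block, leave-one-out included. With the replicate block it was 208, and by alternatives that were partly chosen after seeing the data 8 with a pseudocount of 0.1, 168 with a pseudocount of 5 or with a mean of at least 10 RPKM, 64 with median-ratio scaling, 476 with quantile normalization and 0 with no filter. Leaving out both libraries of replicate 1, 2 or 3 gave 1051, 10 and 19 genes. The block changed no other call on a factor. The cause of these changes was not tested. Genes called between numbers were 3411 with a mean of at least 10 RPKM (4023 genes tested), 8263 with no filter (12331 genes tested) and otherwise (6327 genes tested) 3856 to 5805, and 4342 to 5867 with 1 library left out. Of the 7 factors, 4 to 6 were called, including 4 of the 5 left by the mean of at least 10 RPKM.

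Method differences of single factors, none called, turned in these cases. Klf4 was 0.032 with a pseudocount of 5 (the same with the block), 0.0042 with median-ratio scaling (the same with the block), and 0.070 and 0.060 with the block without replicates 1 and 2. Klf2 was -0.058 with quantile normalization (the same with the block) and -0.018 with the block without replicate 2. Tbx3 was -0.068 with the block without replicate 3. With 1 library left out, ranges were -1.38 to 1.42 for Klf4, -1.65 to 0.87 for Klf5, -0.75 to 1.52 for Tbx3, -0.66 to 1.83 for Nr0b1, -0.00091 to 0.82 for Esrrb, 0.0029 to 0.27 for Klf2 and 0.044 to 0.61 for Tcfcp2l1. They were -0.24 to 2.05 for Pou3f1, -1.99 to 0.62 for Lefty1 and 0.51 to 1.84 for Klf6. The median of the 7 was 0.058 to 0.61. Scaling moved the median over all genes to 0.062 or 0.0031.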
